A study of Arabidopsis thaliana with 11 samples.

Results

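Stigma and whole seedling of Arabidopsis thaliana were compared on 7 of the 11 arrays of the series, the 3 titled stigma and the 4 titled seedling. All plants were Landsberg erecta, and the labels name no mutation, transgene or chemical treatment. For the stigma samples, buds at stage 8 were emasculated, so that no pollen of the same flower could be shed onto the pistil, and 1 day later the tip of the pistil was cut from the ovary with scissors. Seedlings were 10 days old, raised on Murashige and Skoog plates, and were taken whole. The other 4 arrays held the ovary from the same kind of pistil; they entered the fit to help estimate the spread and are quoted as a level only. Stigma arrays carry the ovary's sample text and the source name pistil, so groups were taken from the array titles. A cut pistil tip can also hold style tissue, and a whole seedling mixes root, hypocotyl, cotyledon and leaf, so a difference is between mixtures of cells. Fewer cells of a type and less RNA per cell cannot be told apart in such data. Nothing in the labels says that arrays of 1 tissue came from separate plants, so the p-values measure only how these samples vary, and that may be technical.

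The stigma is the receptive end of the pistil. Its papilla cells are epidermal cells with a waxy cuticle and an active secretory pathway, and they bind and hydrate the pollen grain before the tube enters the style. NGATHA transcription factors and locally made auxin are known to be needed for the style and stigma to form. A seedling is rich in photosynthetic leaf cells and in roots, which hold their own stores of defence enzymes.

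Each array gave 1 signal per probe set, a linear brightness that the authors had scaled to a common mean. The median signal was 206.6 to 226.3 on the stigma arrays and 208.2 to 229.9 on the seedling arrays. A log2 ratio between the 3′ and 5′ GAPDH control probe sets, which is high where the labelled RNA was shortened, was 2.27, 1.09 and 1.12 on stigma arrays 1 to 3 and 0.32, 0.25, 0.55 and 0.42 on seedling arrays 1 to 4. For actin it was 2.41 to 4.14 on stigma and 1.46 to 2.49 on seedling arrays. RNA quality thus moved with tissue: every stigma array had a higher GAPDH ratio than every seedling array, though the actin ratios overlap. A fit with this GAPDH ratio as a covariate was run. It is quoted below where it ended a call whose difference is printed or moved a count by over 1.5 times. No scanning period held both tissues (stigma 1 in period A, stigma 2 and 3 in B, seedlings 1 and 2 in C, seedlings 3 and 4 in D), so tissue and scanning period cannot be told apart. Chip lots 1 and 2 held both tissues, and lot 3 held seedlings 3 and 4. Seedling 4 stood furthest from its group, with a mean rank correlation of 0.946 with the other seedlings against 0.962 to 0.967 for seedlings 1 to 3.

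Transcripts that differed between stigma and seedling were many and ran in both directions. Of 15524 tested probe sets, 4053 (26.1%) were called different by limma, at a Benjamini-Hochberg adjusted p under 0.05 and at least 2-fold; 1707 (11%) were higher in stigma and 2346 (15.1%) were lower. Differences are of log2(signal + 17.2), where 17.2 is the 10th percentile of all values, which understates the change of dim transcripts. A difference against a mean signal under 17.2 is a bound, written "at least" or "or lower", and bounds have no order among them. Over all tested probe sets the median was 0.04. Array values are given in the order of the array numbers. Seedling had more calls at low folds and stigma more at high folds: past 16-fold there were 150 higher against 119 lower, and past 64-fold 29 against 17. The added 17.2 limits folds more often on the lower side, where 111 calls are bounds, against 70 of the calls higher. The order at high folds is thus uncertain. The arrays of both tissues did not overlap for 3916 of the called probe sets, beside 51.4% of all tested ones. With the GAPDH ratio as a covariate 1618 were called higher and 1821 lower (22.2% of those tested), 71.4% of the calls were kept in the same direction and 25 had the opposite sign. Within chip lot 1, which has 1 array of each tissue that is assumed to vary like the others, 1696 were higher and 2190 lower, and within lot 2 there were 1678 and 2246.

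The transcripts with the largest excess in stigma were dim in the seedling. AT5G19880 had a signal of 19204, 14522 and 14090.3 on the 3 stigma arrays and 3.3, 17.4, 9.5 and 17.4 on the 4 seedling arrays, a difference of at least 9.12 (SE 0.74, adjusted p = 3.68e-07). CES (CESTA, also called HAF), a bHLH transcription factor needed for the transmitting tract that carries pollen tubes, had 11333, 14447 and 9204 in stigma and 11.3, 43.6, 26.9 and 27.1 in seedling, a difference of 8.06 (SE 0.25, adjusted p = 5.35e-11). The organic cation and carnitine transporter gene OCT1 had 7668, 5637 and 4508 in stigma and 12, 5.4, 4.6 and 5.6 in seedling, a difference of at least 7.92 (SE 0.19, adjusted p = 9.9e-12). For these 3 genes the lowest stigma array lay further above the highest seedling array than the stigma arrays lay from one another. SBT4.13, a subtilisin-like protease gene, had 16593, 13377 and 14827 in stigma and 51.5, 43, 65.8 and 59.7 in seedling (7.70, SE 0.14, adjusted p = 1.04e-12). GLC (GLAUCE), an acyltransferase gene known from a mutant with a fault in fertilization, had 18814, 15858 and 16960.1 against 123, 100.4, 108 and 76.5 (7.19, SE 0.24, adjusted p = 8.95e-11), and its second probe set differed by 6.49. AT3G12000 had 14659, 13026 and 12910.4 in stigma and 57.1, 46.8, 68.4 and 46.4 in seedling (7.57, SE 0.63, adjusted p = 4.6e-07). The stigma arrays were high and close together for all 3, and no seedling array came near them.

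The rule for leading genes took the 25 probe sets with the largest difference in each direction, among those of 1 known gene whose arrays do not overlap. Those 25 higher in stigma differed by 5.66 to 9.12 on the log2 scale, and 10 of these values are bounds. Besides the genes above, 3 have a symbol in the annotation used. CYP79A2, the enzyme that turns phenylalanine into phenylacetaldoxime for benzyl glucosinolate, had 1235, 1545 and 1939 in stigma and 6.5, 3.4, 2.9 and 6 in seedling (at least 6.16, SE 0.43, adjusted p = 8.59e-08). WSD1, a wax ester synthase of the epidermis, had 1960.2, 1501 and 1407 against 20.2, 7.4, 4.6 and 5.1 (at least 5.97, SE 0.19, adjusted p = 8.25e-11), and SBT5.4, another subtilase, had 8569, 7084 and 6963 against 75.2, 109, 90.1 and 73.4 (6.19, SE 0.46, adjusted p = 1.68e-07). All stigma signals of these 3 lay far above all their seedling signals. The others are loci without a symbol there, among them AT1G05450 (6.89), AT5G11400 (at least 6.75), AT1G30795 (6.61), AT4G19430 (6.48), AT2G34810 (6.42) and AT5G61720 (at least 6.37). The ovary mean lay above the seedling mean for all 25, and above the stigma mean for 1, WSD1, at 3340.4. The rule picks genes with a stigma signal far above seedling, which favours such counts. The share over all tested probe sets was not computed. For some of these 25 genes ovary 1 was far above the other ovary arrays and raised the ovary mean. On ovary arrays 1 to 4 AT5G19880 had 1802, 179, 84.1 and 88.1, and AT3G12000 had 1832, 316, 124 and 157. AT3G03670 had 321, 49.4, 78.5 and 109.9, beside a seedling mean of 93.5. For others, such as SBT4.13 (5570.5, 5651, 6332 and 5362), the ovary arrays were close together. All 25 stayed called in every alternative that was run, those with other fold limits apart.

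**Figure D1:**
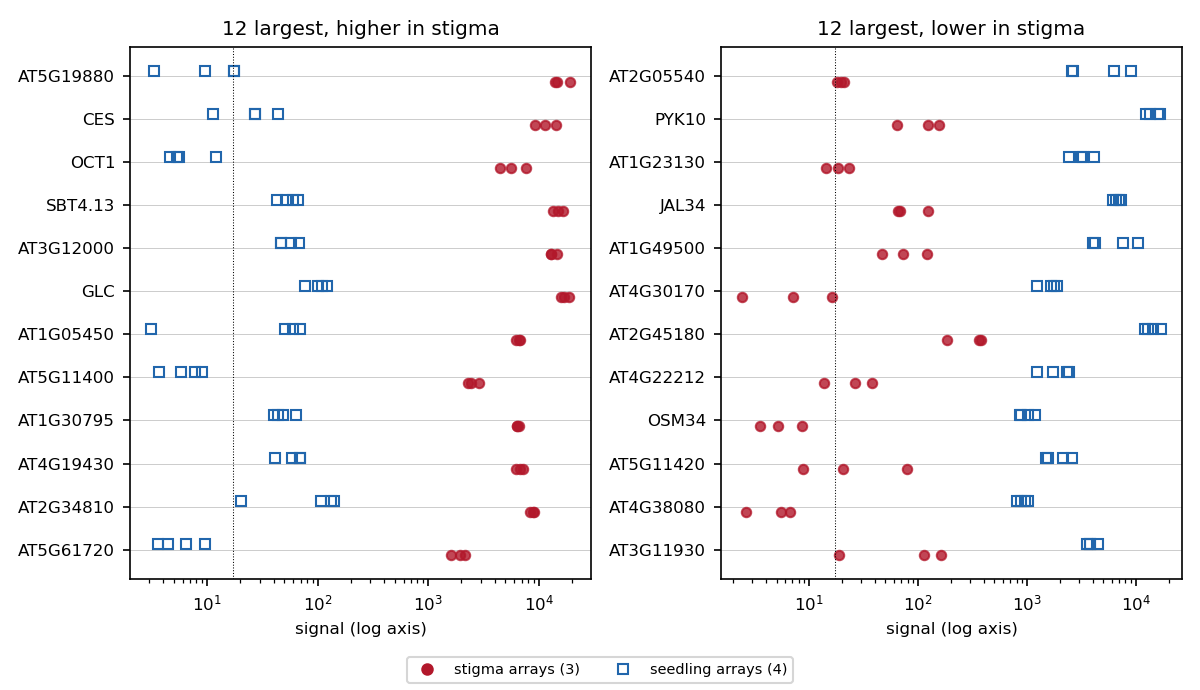
Signal on each array (log axis) of the 12 genes with the largest positive (left) and the 12 with the largest negative difference (right); filled circles are the 3 stigma arrays, open squares the 4 seedling arrays, and the dotted line marks 17.2. The rule took only genes whose arrays do not overlap, so circles and squares stand apart in every row by choice. The 3 stigma arrays of CES, for example, sit between 9204 and 14447 and its seedling arrays between 11.3 and 43.6.

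The stigma, root and leaf markers quoted here went with the array titles. Further markers were planned and are not quoted. All were chosen with earlier results of these data known, and several are leading genes of this contrast. They are thus no independent check of the titles. Of the stigma markers, AT5G19880, CES and AT3G12000 are described above, and AT2G33850 had 17224, 12927 and 12529.7 in stigma and 625, 588, 281 and 242 in seedling, a difference of 5.08 (SE 0.997, adjusted p = 0.000855), with no overlap. The root markers PYK10 and EXPA7 and the leaf markers LHCB4.2 and PRK were all called lower in stigma, with values given below. The remaining tested root gene was not called, at −0.86. Genes of the lower pistil were low in stigma beside the ovary. INO, which patterns the ovule's outer integument, had 201, 247 and 137 in stigma, 154, 110.3, 272 and 119 in seedling and an ovary mean of 579; SWEET9, a sugar exporter known from nectaries, had 183, 143 and 173 in stigma, 88.5, 102, 146 and 61.3 in seedling and an ovary mean of 5598. Neither was called between stigma and seedling, and for both the arrays overlap. AT1G56100, whose ovary mean was 2205, had 116, 31.1 and 60.5 on the stigma arrays and was called higher than in seedling by at least 1.47 (SE 0.41), a call that was lost without stigma 1. The pair of reference genes AT4G34270 and MON1 (AT2G28390) were not called, at 0.25 (SE 0.15) and −0.03 (SE 0.14). Calls were lost with the GAPDH covariate, with a pseudocount of 144.2 or under another scaling, block or set of arrays for AT1G56100; within chip lot 1 for AT2G33850; within chip lot 2 for AT2G33850 and AT1G56100.

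Most markers of other cells of the flower were dim in the cut stigma. Of 9 pollen genes 3 passed the filter on low values and 1 was called, PLIM2a, a LIM protein that bundles actin in pollen, with 295, 224 and 289 in stigma and 13, 11.7, 14.9 and 9.3 in seedling (at least 3.28, SE 0.24, adjusted p = 1.68e-07). The summed signal of the 9 was 1374 to 1672 on stigma arrays and 959 to 1619 on seedling arrays. ANX1 and MGH3, named after their values were seen, had stigma means of 6.77 and 16.1. AT59 and ACT12, named in the same way, had stigma means of 111 and 38.2 beside 6.88 and 5 in seedling, also below the filter. EMS1, the receptor kinase that specifies the tapetum, was higher in stigma, with 2319, 2191 and 2070.0 against 270.3, 262, 294 and 256 (2.94, SE 0.13, adjusted p = 1.87e-09), while the tapetum genes ATA27 and AMS had stigma means of 15.8 and 22.3, below the filter. Of 8 embryo sac and egg genes 3 were tested and 1 was called, DD46, by at least 1.16 (SE 0.36) with overlapping arrays; it was lost without stigma 2, where none was called, or stigma 3, and 2 were called without seedling 4. The part that such cells play in the differences was not tested. The call was lost with a pseudocount of 144.2, within chip lot 1 or under another scaling, block or set of arrays for DD46.

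In the other direction, seedlings carried transcripts that the stigma almost lacked, among them root genes. Of 3 tested genes of root and root hair 2 were called lower, PYK10 and EXPA7. PYK10, a beta-glucosidase stored in the ER bodies of roots, had 63.5, 124 and 154 on the stigma arrays and 16436, 15783, 13319.7 and 12294 on the seedling arrays, a difference of −6.84 (SE 0.28, adjusted p = 7.16e-10). The jacalin-related lectin gene JAL34, whose product binds such glucosidases, had 65.2, 67.5 and 122 against 7222, 6987, 6514 and 6164 (−6.08, SE 0.19, adjusted p = 5.02e-11). NAI2, a protein needed for ER bodies to form, had 7.3, 34.8 and 49.4 against 1360.3, 1349, 969.8 and 1031 (−4.75, SE 0.29, adjusted p = 2.94e-08). The seedling arrays lay close together for all 3, and the highest stigma signal was far below the lowest seedling signal. NAI1, the bHLH factor that controls PYK10 and NAI2, differed by −3.54 (SE 0.31), JAL22 by −4.49 (SE 0.20) and JAL33 by −4.35 (SE 0.15). Of 18 tested genes for beta-glucosidases, jacalin lectins and ER bodies 9 were called lower and 2 higher, with a median of −1.14. BGLU44 and JAL23 were the pair that was higher. BGLU44 had 7306, 7221 and 7926 in stigma and 2324, 2198, 2056 and 729.8 in seedling (2.15, SE 0.31, adjusted p = 7.12e-05). JAL23 had 352, 169.9 and 248 against 39.7, 47.1, 42 and 41.6 (2.14, SE 0.26, adjusted p = 1.77e-05), and its ovary mean was 3428. A further root gene, EXPA7, the expansin of root hairs, had 95.2, 17.9 and 31.5 against 224, 141, 218 and 163 (−1.80, SE 0.36, adjusted p = 0.000937). Beside the above, calls ended with a pseudocount of 144.2 or within chip lot 1 for EXPA7.

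The 25 leading genes lower in stigma differed by 4.69 to 6.93 in size, 7 of them as bounds, and they too stayed called in those alternatives. Apart from the ER body genes, 3 of them have a symbol in the annotation used. OSM34, an osmotin-like defence protein, had 8.5, 3.5 and 5.1 in stigma and 868, 1021, 870.0 and 1187 in seedling (−5.45 or lower, SE 0.32, adjusted p = 1.73e-08). UGT72E1, which glycosylates lignin precursors, had 4.3, 12.9 and 6.4 against 636, 661, 605 and 602 (−4.69 or lower, SE 0.26, adjusted p = 1.02e-08). Both were at the dim end of the scale on all stigma arrays. BCAT4, which starts the lengthening of methionine for aliphatic glucosinolates, had 30, 58.5 and 106 against 4378, 4392, 2585 and 503 (−4.89, SE 0.63, adjusted p = 2.73e-05), and without seedling 4, its lowest seedling array, the difference was −5.60. The others have no symbol here, among them AT2G05540 (−6.93), AT1G23130 (−6.48), AT1G49500 (−6.04), AT4G30170 (−6.03 or lower), AT2G45180 (−5.49) and AT4G22212 (−5.48). For 20 of the 25 the ovary mean was above the stigma mean, and for none was it above the seedling mean. The rule picks genes with a seedling signal far above stigma, which favours these counts too.

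Families and functions were described through 69 lists, made from the names of genes with 1 probe set counted per gene, that together hold 996 genes, 734 of them tested. Over all 8409 tested genes 23.8% were called, 10.6% higher and 13.1% lower, and the counts below are to be read beside these shares. Called members ran in both directions in 42 lists, were only higher in 13, only lower in 12, and 2 lists had none. The lists were drawn up with earlier results of these data known, so they describe the contrast and are not independent evidence of it.

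**Figure D2:**
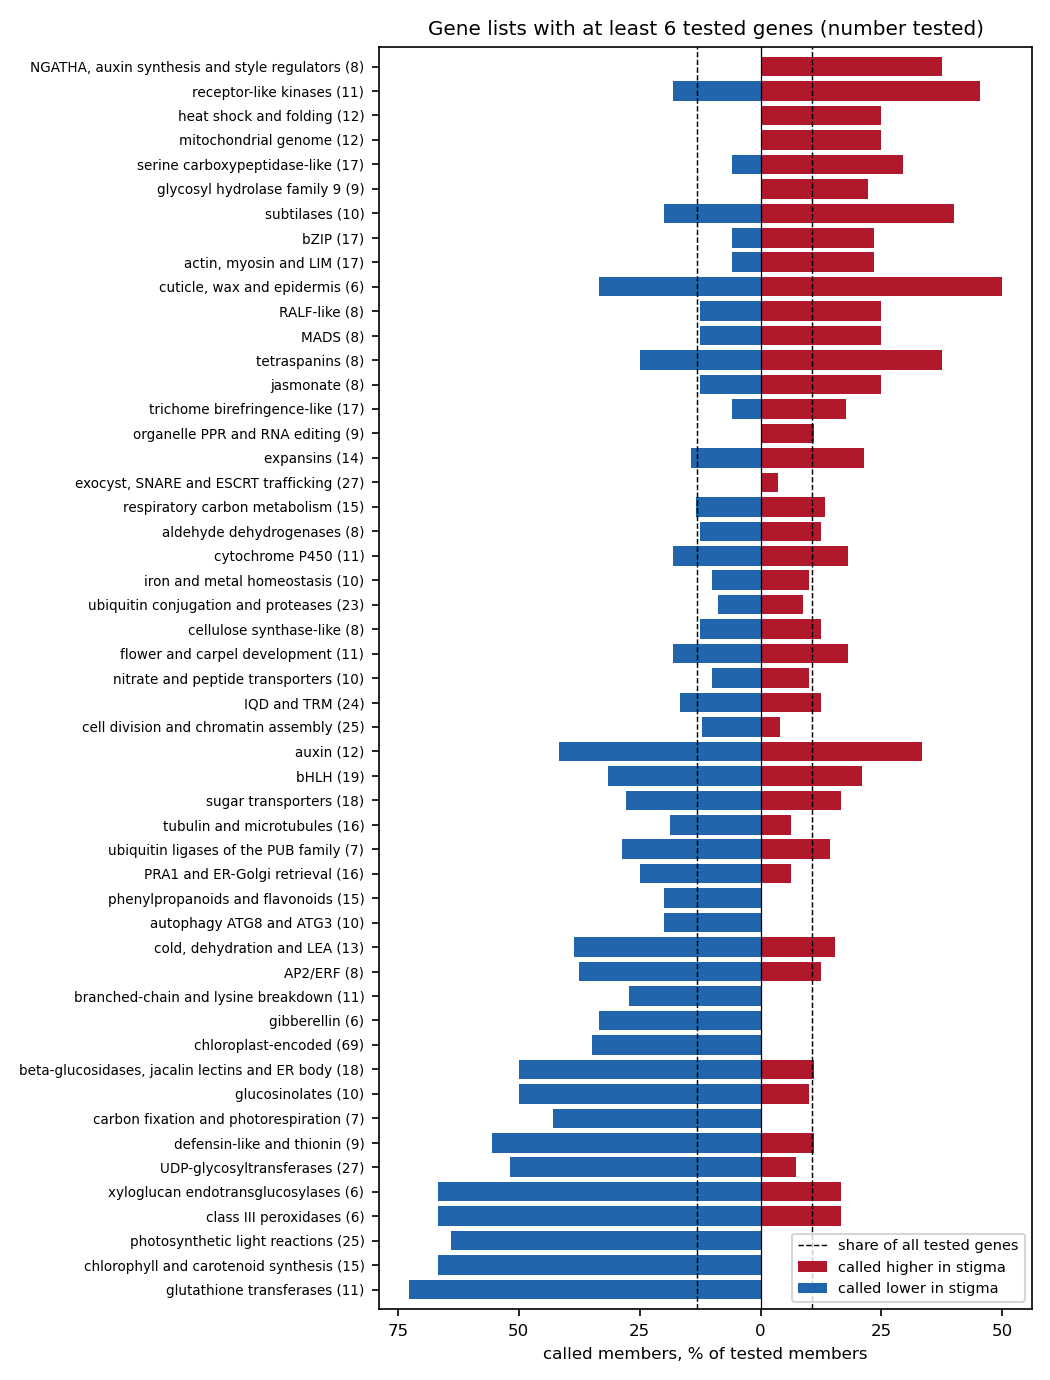
For each of the 51 lists with at least 6 tested genes, red bars to the right give the percentage of tested members called higher in stigma and blue bars to the left the percentage called lower; the number tested is in brackets and the dashed lines mark the shares over all tested genes, 10.6% higher and 13.1% lower. Photosynthesis, chlorophyll, glutathione transferase and glycosyltransferase lists lie mostly to the left, NGATHA genes lie to the right, and many lists, such as subtilases and receptor-like kinases, extend both ways.

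Many photosynthesis genes were lower in stigma, where their transcripts were still measured. Of 25 tested nuclear genes for the light reactions 16 were called lower and none higher, with a median difference of −1.33 beside 0.04 for all probe sets; the medians within chip lots 1 and 2 were −1.07 and −1.31. LHCB4.2, an antenna protein of photosystem II, had 2017, 1429 and 1535 in stigma and 6522, 5802, 8437 and 9776 in seedling (−2.17, SE 0.19, adjusted p = 8.25e-07). NdhL, a subunit of the chloroplast NADH dehydrogenase-like complex, had 545, 499.6 and 555 against 3328, 3572, 2815 and 2142 (−2.41, SE 0.20, adjusted p = 4.21e-07). NdhS, another subunit, differed by −1.73 (SE 0.19), and CaS, a calcium-binding thylakoid protein, by −1.81 (SE 0.17). No stigma array reached a seedling array for LHCB4.2 or NdhL. The summed signal over the list was 65695 to 74346 on stigma arrays beside 140860.3 to 160709 on seedling arrays. LHCB4.3, a relative of LHCB4.2, was not called, at 1.05. Without seedling 4 the count stayed at 16, and with the GAPDH ratio as a covariate it was 15.

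Carbon fixation and pigment synthesis went the same way. Of 7 tested genes for carbon fixation and photorespiration 3 were called lower, and 4 without seedling 4. PRK, the kinase that makes ribulose bisphosphate, had 3191, 3638 and 3585 in stigma and 16542, 16852, 14446 and 12426 in seedling (−2.10, SE 0.13, adjusted p = 3.24e-08), and HPR, the hydroxypyruvate reductase of photorespiration, had 2689, 2999.5 and 2640.2 against 14042, 14429, 11995 and 13089.6 (−2.26, SE 0.14, adjusted p = 3.23e-08). SBPASE, a phosphatase of the Calvin cycle, differed by −1.57 (SE 0.21). Of 15 tested genes for chlorophyll and carotenoids 10 were called lower and none higher, with 12 lower without seedling 4 and 7 with the GAPDH ratio as a covariate. HEME1, a uroporphyrinogen decarboxylase, had 304, 515 and 533 against 2717, 3009, 2404 and 1857 (−2.45, SE 0.21, adjusted p = 6.28e-07), and PORB, a protochlorophyllide reductase, had 1366, 1214 and 1370.5 against 5572, 5299, 7993 and 8614 (−2.34, SE 0.24, adjusted p = 3.96e-06). Stigma and seedling arrays stood apart without overlap for all of these. CHLM, the magnesium protoporphyrin methyltransferase, differed by −1.91 (SE 0.17) and LIL3:2, a light-harvesting-like protein, by −1.71 (SE 0.16).

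Genes of the chloroplast genome were called lower and a few of the mitochondrial genome higher, a contrast between organelles that was not tested. All 69 chloroplast-encoded genes on the array were tested, and 24 were called lower and none higher, with a median of −0.83. This count depended on the arrays: without seedling 4 it was 29, without stigma 3 it was 13, and with the GAPDH ratio as a covariate 18. psaA, a core protein of photosystem I, had 693, 765 and 909 in stigma and 13279, 12894, 7020.5 and 11257 in seedling (−3.75, SE 0.22, adjusted p = 1.62e-08), and atpF, a subunit of the ATP synthase, had 1029, 1277 and 2038 against 8744, 7882, 4705 and 6302 (−2.26, SE 0.25, adjusted p = 6.81e-06). psbH, of photosystem II, differed by −1.79 (SE 0.17). Seedling arrays differed among themselves for some of these genes: psbD had 8187, 8108, 1674 and 3103 on seedlings 1 to 4 and 914, 865 and 854 on the stigma arrays (−2.28, SE 0.43, adjusted p = 0.000635), so that seedling 3 was the lowest seedling but still above all stigma arrays. Of 12 tested mitochondrial genes 3 were called higher and none lower, with a median of 0.94, or 0.81 within chip lot 1 and 0.47 within lot 2. ccb452, for cytochrome c assembly, had 726, 559 and 576 against 333, 262, 209.5 and 269 (1.17, SE 0.20, adjusted p = 0.000308). The others called were nad4L, at 1.08 (SE 0.21), lost without seedling 3, and ccb382, at 1.05 (SE 0.29), lost without stigma 1, seedling 3 or seedling 4. Leaving out 1 array moved this count to 5 (stigma 2 or seedling 2), 6 (stigma 3 or seedling 1) or 1 (seedling 3), and all 12 differences were above 0. Under other settings the call ended with the GAPDH covariate for psbD, ccb452 and ccb382; with a pseudocount of 144.2 for ccb452, nad4L and ccb382; within chip lot 1 for nad4L and ccb382; within chip lot 2 or under another scaling, block or set of arrays for ccb382.

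Cuticle genes differed in both directions. Of 6 tested 3 were called higher and 2 lower, or 2 and 1 with the GAPDH ratio as a covariate, and CR4, a receptor kinase of the epidermis, was called by 1.01 (SE 0.29) with overlapping arrays; that call was lost without stigma 1, stigma 2, seedling 2 or seedling 4, where the difference was 0.94 for the last. SHN3, a SHINE factor that activates cutin genes, had 250.3, 185 and 219 in stigma and 15.3, 14.7, 16.3 and 18.8 in seedling (at least 2.81, SE 0.19, adjusted p = 5.77e-08). On the lower side CER26, of very-long-chain wax synthesis, had 113, 17.9 and 25.7 against 772, 505, 609.5 and 598 (−3.44, SE 0.42, adjusted p = 1.63e-05). DEWAX, a repressor of wax genes, had 306, 244 and 299 against 1368, 1222, 2552 and 6109 (−2.93, SE 0.57, adjusted p = 0.000753), with seedlings 3 and 4 above seedlings 1 and 2; the arrays of the tissues did not overlap. Calls were lost with the GAPDH covariate or within chip lot 1 for CR4 and DEWAX; with a pseudocount of 144.2 or under another scaling, block or set of arrays for CR4; within chip lot 2 for DEWAX.

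Wall-loosening genes also divided by member. Of 14 tested expansin genes 3 were called higher and 2 lower; there were 4 and 3 without seedling 4 and 5 higher without seedling 1 or seedling 2. EXLA1, an expansin-like gene, had 10453, 8451 and 9265 in stigma and 289, 206, 344 and 3831 in seedling (4.08, SE 0.75, adjusted p = 0.000507). Seedling 4 had by far the most of it among the seedlings, and without that array the difference was 5.01. EXLA3 had 287, 359 and 357 against 30.3, 34.5, 10.6 and 102 (2.71, SE 0.38, adjusted p = 5.07e-05), whereas EXLB1 was lower in stigma, with 87.3, 77.3 and 70.8 against 393, 366, 502 and 502 (−2.25, SE 0.27, adjusted p = 1.57e-05). Of 6 xyloglucan endotransglucosylase genes, whose enzymes cut and rejoin wall xyloglucan, 1 was higher and 4 were lower. XTH33 had 1457, 1192 and 1054 against 32.9, 115, 53.7 and 309.7 (3.48, SE 0.48, adjusted p = 4.38e-05), and XTH16 had 241, 100.3 and 140.0 against 896, 828.8, 1147 and 2342 (−2.84, SE 0.33, adjusted p = 1.06e-05). The stigma arrays were the high ones for XTH33 and the low ones for XTH16, without overlap. All 3 tested SKU5-like genes, for extracellular proteins related to copper oxidases, were lower, and 2 of them without stigma 1, stigma 2 or seedling 2; SKU5 itself had 809.6, 567 and 570.2 against 3333, 3479.7, 3726 and 6542 (−2.65, SE 0.22, adjusted p = 3.68e-07). The call was lost with the GAPDH covariate for EXLA1.

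Of 17 tested genes of the TRICHOME BIREFRINGENCE-LIKE family, which acetylates wall polysaccharides, 3 were called higher and 1 lower. TBL26 had 2619, 3027 and 2432 in stigma and 248, 242, 186 and 124 in seedling (3.68, SE 0.22, adjusted p = 2.37e-08), with every stigma array far above every seedling array. TBL40 differed by 1.76 (SE 0.21) and TRICHOME BIREFRINGENCE by 1.75 (SE 0.27). The 1 lower, TBL37, at −1.02 (SE 0.23), was not called without stigma 2, stigma 3 or seedling 4, where it was −0.85 for the last, and 2 were lower with the GAPDH ratio as a covariate. Of 9 tested endoglucanase genes of glycosyl hydrolase family 9, 2 were called higher, and GH9B5 had 160.1, 184 and 175 against 36.5, 52.1, 51.5 and 28.6 (1.70, SE 0.23, adjusted p = 4.78e-05). Of 4 tested pectin genes, the pectin methylesterase genes PMEPCRF and ATPMEPCRB were called, PMEPCRF lower, at −1.77 (SE 0.20), and ATPMEPCRB higher, at 1.27 (SE 0.34), the latter not without seedling 4. Beside the above, calls ended with the GAPDH covariate for ATPMEPCRB; with a pseudocount of 144.2 for TBL37, GH9B5 and ATPMEPCRB; within chip lots 1 and 2 taken alone or under another scaling, block or set of arrays for TBL37 and ATPMEPCRB.

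Subtilase and carboxypeptidase genes were called in both directions. Of 10 tested subtilase genes 4 were called higher and 2 lower, or 3 and 2 without seedling 4 and 3 and 1 with the GAPDH ratio as a covariate; SBTI1.1, at 1.54, lost its call without seedling 4 (0.92) or stigma 1. SBT4.13 and SBT5.4 are described above, and the relative SBT4.12 was lower in stigma, with 20.4, 29.3 and 49 against 295, 363, 219.8 and 189 (−2.503, SE 0.39, adjusted p = 0.000125). The other called lower, ATSBT5.2, at −1.22 (SE 0.31), was not called without stigma 3. Of 17 tested serine carboxypeptidase-like genes 5 were higher and 1 lower, or 3 and 2 with the GAPDH ratio as a covariate, where scpl41 (at least 2.28) and scpl46 (1.84) were not called. SCPL43 had 1593, 1459.8 and 1447 in stigma and 88.5, 141, 139 and 134 in seedling (3.43, SE 0.19, adjusted p = 1.25e-08), and scpl40 had 644, 682 and 564 against 95.6, 124, 96.3 and 119.7 (2.36, SE 0.21, adjusted p = 9.78e-07). Neither gene had an array of 1 tissue near the other tissue. The list's lower count was 2 without seedling 1 or seedling 2. Of 3 tested vacuolar processing enzymes, proteases that mature vacuolar proteins, 2 were higher, or 1 with the covariate: BETA-VPE had 624, 764 and 697 against 125, 180.5, 254 and 216 (1.79, SE 0.25, adjusted p = 5.06e-05), and DELTA-VPE had 722, 229 and 223 against 79.4, 87.4, 87.6 and 80.3 (1.81, SE 0.31, adjusted p = 0.000281), with stigma 1 far above the other stigma arrays and an ovary mean of 3371. Under other settings the call ended with the GAPDH covariate for SBTI1.1, ATSBT5.2, scpl41, scpl46 and DELTA-VPE; with a pseudocount of 144.2 for SBTI1.1, ATSBT5.2 and scpl41; within chip lots 1 and 2 taken alone for SBTI1.1, ATSBT5.2 and scpl46; under another scaling, block or set of arrays for SBTI1.1.

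Enzymes that conjugate small molecules were mostly lower in stigma. Of 27 tested UDP-glycosyltransferase genes 14 were called lower and 2 higher, with a median of −1.06; without seedling 4 there were 15 and 1, and with the GAPDH ratio as a covariate 14 and 1. UGT76C1 and UGT76C2, which glucosylate cytokinins, differed by −3.12 or lower (SE 0.35) and −2.79 (SE 0.30). UGT85A2 had 70.3, 78.5 and 73.1 in stigma and 546, 624, 558 and 801 in seedling (−2.82, SE 0.28, adjusted p = 2.6e-06), while its relative UGT85A3 was the clear exception, with 1355, 2155 and 2095 against 95.4, 134, 125 and 103 (3.82, SE 0.24, adjusted p = 3.39e-08). The stigma arrays were thus low for UGT85A2 and high for UGT85A3. UGT80B1, a sterol glucosyltransferase, the other called higher, at 1.04 (SE 0.16), was not called without stigma 1, seedling 2 or seedling 4. Of 11 tested glutathione transferase genes, for enzymes of detoxification, 8 were lower and none higher, with a median of −1.47, and the count stayed at 8 whichever single array was left out. GSTU20 had 346, 218 and 343 against 6277, 5685, 3875 and 879 (−3.42, SE 0.51, adjusted p = 9.09e-05), and −4.05 without seedling 4, its lowest seedling. GSTU25 differed by −3.04 (SE 0.45) and GSTU27 by −1.78 (SE 0.19). Calls were lost with the GAPDH covariate, with a pseudocount of 144.2 or under another scaling, block or set of arrays for UGT80B1.

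Of 6 tested genes named as class III peroxidases 4 were called lower and 1 higher. The list holds only genes named as peroxidases in the annotation used. Loci without a symbol are not in it, so these counts do not describe the whole family. PRX71 had 109, 142 and 265 in stigma and 2561, 2664, 1721 and 1156 in seedling (−3.44, SE 0.32, adjusted p = 1.26e-06), and PRX72, a lignin peroxidase, had 7.1, 23.7 and 10.7 against 186, 189, 134 and 192 (−2.66 or lower, SE 0.34, adjusted p = 2.59e-05). PRX52, also tied to lignin, was the 1 called higher in this list, with 379.8, 528 and 457 against 40.1, 98.9, 77.5 and 63.4 (2.47, SE 0.33, adjusted p = 3.37e-05) and an ovary mean of 1046. PRX25, lower at −1.16 (SE 0.36) with overlapping arrays, was not called without stigma 2. Of 15 tested phenylpropanoid genes 3 were lower and none higher. That is 20%, beside 23.8% of all genes called in either direction and 13.1% called lower. ALDH2C4, which makes ferulic acid, had 275, 215 and 232 against 2996, 3358, 2759 and 3235 (−3.59, SE 0.15, adjusted p = 8.77e-10), and F6'H1, of scopoletin synthesis, had 7.7, 8.1 and 23.8 against 837, 889.8, 335 and 170.2 (−4.01 or lower, SE 0.49, adjusted p = 1.74e-05). All stigma arrays were below all seedling arrays for both. Of 5 tested methionine sulfoxide reductases, which repair oxidized methionine, 3 were lower, MSRB9 at −4.22 (SE 0.39), MSRB6 at −3.32 (SE 0.26) and MSRB5 at −3.05 (SE 0.35). The call was lost with a pseudocount of 144.2, within chip lot 1 or under another scaling, block or set of arrays for PRX25.

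Glucosinolate genes were called in both directions. Of 10 tested, 5 were called lower, CYP79A2 was called higher and 4 were not called; 3 were lower without stigma 1, without seedling 3 or with the GAPDH ratio as a covariate. AOP3, a side-chain modifying enzyme, had 186, 201 and 149.5 in stigma and 3105, 3062, 1916 and 468 in seedling (−3.15, SE 0.49, adjusted p = 0.000128), and −3.77 without seedling 4. UGT74B1, which adds the glucose, had 213, 161 and 221 against 1225, 917, 836 and 426 (−1.93, SE 0.28, adjusted p = 6.67e-05). Stigma arrays were the lowest throughout, and seedling 4 was the lowest seedling for both. AOP1 and MYC4, a bHLH activator of the pathway, at −1.08 (SE 0.24) and −1.06 (SE 0.26), lost their calls without stigma 1 or seedling 3. Beside the above, calls ended with the GAPDH covariate, with a pseudocount of 144.2 or within chip lot 2 for AOP1 and MYC4.

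Small defence peptides were mostly lower, with 1 large exception. Of 9 tested defensin-like and thionin genes 5 were called lower and 1 higher. The exception, the jasmonate-responsive thionin gene THI2.1, had 9094, 2155 and 2020.0 in stigma and 68.1, 102, 77.6 and 44.6 in seedling (5.29, SE 0.41, adjusted p = 2.44e-07), and its ovary mean was 14565. Stigma 1 was the high array of its tissue. The relative THI2.2 went the other way, with 17.7, 28.4 and 36.9 against 686, 782, 1884 and 1050.4 (−4.55, SE 0.38, adjusted p = 4.58e-07). LCR68, LCR69 and PDF2.5 differed by −2.03 (SE 0.24), −1.67 (SE 0.30) and −2.12 (SE 0.29); for LCR69, too, stigma 1 was the highest stigma array, at 4297 against 1361 and 1513. JMT, which methylates jasmonic acid, was higher, with 559, 541 and 418 against 6.3, 11.3, 7.1 and 7.9 (at least 4.36, SE 0.27, adjusted p = 2.99e-08) and an ovary mean of 2161. THI2.1 and JMT were the called higher members among 8 tested jasmonate genes. Under other settings the call ended within chip lot 1 for LCR69.

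Regulators known from the style were among the genes higher in stigma. Of 8 tested genes of the NGATHA family, auxin synthesis and style regulation 3 were called higher and none lower, with a median of 0.85 and every member above 0. NGA1 had 869, 827 and 899 in stigma and 177, 219, 274 and 97.8 in seedling (2.16, SE 0.26, adjusted p = 1.49e-05). NGA3 had 149, 293 and 242 against 76.2, 51.9, 75.2 and 81.2 (1.44, SE 0.35, adjusted p = 0.00421), and YUC4, a flavin monooxygenase of auxin synthesis, had 311, 679 and 622 against 78, 56.1, 65.7 and 48.5 (2.75, SE 0.29, adjusted p = 3.74e-06). No seedling array reached a stigma array in any of the 3, and the counts were the same whichever single array was left out. NGA2 and NGA4 had differences of 0.93 and 0.71, SPT (SPATULA), a bHLH factor of the carpel margin, 0.77, and YUC2 0.02; none was called. Calls were lost with a pseudocount of 144.2 or within chip lot 1 for NGA3.

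Auxin genes were called in both directions. Of 12 tested 4 were called higher and 5 lower, with 4 lower without seedling 4 and 3 with the GAPDH ratio as a covariate. WAG2, a protein kinase that directs auxin transport, had 544, 630.0 and 606 in stigma and 72, 73.2, 121 and 79.8 in seedling (2.58, SE 0.22, adjusted p = 6.52e-07). The GH3 family, which joins auxin to amino acids, went both ways: GH3.1 and GH3.9 were higher by 2.67 (SE 0.46) and 1.59 (SE 0.23), and GH3.17 had 88, 110.5 and 109 against 446, 382, 804 and 975 (−2.39, SE 0.27, adjusted p = 9.08e-06). GH3.3 and WES1, of the same family, were lower, at −2.16 (SE 0.53) and −1.69 (SE 0.37). HAT2, an auxin-induced homeodomain factor, was lower, at −1.88 (SE 0.28). YUC6, at −1.08 (SE 0.36), was called with overlapping arrays and lost its call without stigma 1, stigma 2, seedling 3 or seedling 4, where it was −0.80 for the last. Of 6 tested gibberellin genes the receptors GID1B and GID1C were called lower, at −1.19 (SE 0.24) and −1.34 (SE 0.28), and none of the 6 with the covariate. The call was lost with the GAPDH covariate for WES1, YUC6, GID1B and GID1C; with a pseudocount of 144.2 for GH3.9, YUC6, GID1B and GID1C; within chip lot 1 for GH3.1, GH3.3, WES1 and YUC6; within chip lot 2 for GH3.3, WES1, YUC6 and GID1C; under another scaling, block or set of arrays for WES1 and YUC6.

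Other transcription factor families had members called in both directions. Of 19 tested bHLH genes 4 were higher and 6 lower. Beside CES, the petal growth factor BPEp had 234, 122 and 168 in stigma and 10.9, 8.6, 6.3 and 5.7 in seedling (at least 2.90, SE 0.26, adjusted p = 8.48e-07), and ALC (ALCATRAZ), of fruit opening, was higher by 1.28 (SE 0.23). SPCH and FMA, which drive the stomatal lineage, were lower, at −1.97 (SE 0.28) and −1.14 (SE 0.24), and so was STOMAGEN, a peptide that promotes stomata, with 379.9, 237 and 223 against 1294, 1172, 917 and 996 (−1.93, SE 0.19, adjusted p = 2.35e-06). FMA lost its call without stigma 2. The fit without seedlings 3 and 4 lost ALC and FMA. Of 17 tested bZIP genes 4 were higher and 1 lower, or 5 and 2 without seedling 4. bZIP44, of the group that is controlled by sugar, had 10472, 9444 and 7778 against 476, 427, 416 and 411 (4.35, SE 0.14, adjusted p = 8.28e-11), and BZIP61 had 6, 5.9 and 6.7 against 314, 382, 433 and 1498 (−4.55 or lower, SE 0.47, adjusted p = 3.65e-06). Stigma arrays were far above the seedlings for bZIP44 and far below them for BZIP61. Both WRKY6 and WRKY47 were higher by 1.91 (SE 0.22) and 1.46 (SE 0.21), and WRKY22 was lower, at −1.18 (SE 0.37), the 3 called of 4 tested WRKY genes; WRKY22 was not called without seedling 4. YAB3 and YAB5, leaf polarity factors of the YABBY family, were lower, at −2.53 (SE 0.27) and −2.14 (SE 0.23). PTL (PETAL LOSS), a growth repressor of the flower, was higher by 2.18 (SE 0.38). SNZ, a repressor of flowering, was lower, at −3.16 or lower (SE 0.32). Beside the above, calls ended with the GAPDH covariate for FMA and WRKY22; with a pseudocount of 144.2 for ALC, SPCH, FMA and WRKY22; within chip lot 1 for FMA, WRKY22 and PTL; within chip lot 2 or under another scaling, block or set of arrays for ALC, FMA and WRKY22.

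Receptor and peptide genes were called in both directions. Of 11 tested receptor-like kinase genes 5 were called higher and 2 lower, but the lower count was 1 without stigma 1, stigma 3, seedling 2 or seedling 3, and there were 4 and 1 with the GAPDH ratio as a covariate. EFR, the receptor for bacterial elongation factor Tu, had 502, 779.7 and 734 in stigma and 2.6, 10.5, 5.9 and 3.7 in seedling (at least 4.90, SE 0.22, adjusted p = 1.62e-09). SD1-29, an S-domain kinase, was higher by 1.501 (SE 0.21). In contrast PSY1R, the receptor-like kinase named for the growth peptide PSY1, had 7.6, 25 and 20.1 against 304, 353, 328 and 321 (−3.34, SE 0.24, adjusted p = 1.02e-07). Stigma arrays stood above all seedlings for EFR and below all seedlings for PSY1R. Of 8 tested genes for RALF-like peptides, which signal through receptor kinases at the cell surface, 2 were higher and 1 lower; RALFL26 had 205, 276 and 305 against 35.3, 34.2, 48.5 and 16.7 (2.48, SE 0.29, adjusted p = 1.02e-05). RALFL31, at 1.16 (SE 0.25), lost its call without seedling 3 or with the covariate. Of 7 tested ubiquitin ligase genes of the PUB family 1 was higher and 2 lower. PUB43 was higher by 1.36 (SE 0.24), and the immune genes PUB22 and PUB23 were lower, at −2.51 (SE 0.36) and −2.24 (SE 0.28). Under other settings the call ended with the GAPDH covariate or within chip lots 1 and 2 taken alone for RALFL31; with a pseudocount of 144.2 for RALFL31 and PUB23.

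Sugar transporters of the SWEET family took opposite directions. Of 18 tested sugar transporter genes 3 were called higher and 5 lower, 4 lower without seedling 4. SWEET10 had 912, 1037 and 1223 in stigma and 46.6, 72.7, 99.8 and 95 in seedling (3.52, SE 0.21, adjusted p = 1.79e-08), and SWEET1 had 4456, 5023 and 5393 against 1635, 1764, 1503 and 1316 (1.67, SE 0.15, adjusted p = 1.3e-06). SWEET11, which loads sucrose into the phloem of leaves, had 198, 276 and 336 against 4209, 4765, 3938 and 4146 (−3.93, SE 0.29, adjusted p = 1.73e-07). For each of the 3 the tissues did not overlap, with the stigma high for SWEET10 and SWEET1 and low for SWEET11. SWEET2 and SWEET17, which sit in the vacuole membrane, were lower, at −2.27 (SE 0.18) and −1.52 (SE 0.20). TMT1, a vacuolar sugar importer at −1.02 (SE 0.19), was not called without stigma 1, seedling 3 or seedling 4, where it was −0.88 for the last. Of 10 tested genes of the nitrate and peptide transporter family 1 was higher and 1 lower, NPF3.1 and NPF6.2, at 2.08 (SE 0.37) and −2.96 (SE 0.30). ZIP6, a metal transporter, was higher, with 716, 691 and 821 against 177, 199, 206 and 159 (1.91, SE 0.17, adjusted p = 6.84e-07). Calls were lost with a pseudocount of 144.2, within chip lot 2 or under another scaling, block or set of arrays for TMT1; within chip lot 1 for SWEET17 and TMT1.

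Genes of stress and cold were split as well. Of 13 tested 2 were called higher and 5 lower, 4 lower without seedling 4 and 3 without stigma 3. COR15A, which protects chloroplast membranes in the cold, had 1539, 1538 and 1763 in stigma and 124, 89.3, 187 and 196 in seedling (3.35, SE 0.29, adjusted p = 6.44e-07), and LEA27, a late embryogenesis abundant protein, had 2558, 2736 and 2671 against 369, 358, 274 and 261 (3.02, SE 0.15, adjusted p = 4.54e-09). The dehydrin gene LTI30 went the other way, with 81.8, 41.3 and 13.6 against 906, 767, 1475 and 879.6 (−4.14, SE 0.36, adjusted p = 6.71e-07). Each of the 3 had separate ranges in the tissues. Of 12 tested heat shock and folding genes 3 were higher and none lower; the ER chaperone gene ATERDJ3B had 3241, 3637 and 2834 against 1218, 1198, 871 and 995 (1.59, SE 0.15, adjusted p = 1.78e-06) and Hsp70-2 1598, 1917 and 1846 against 565, 696, 573 and 275 (1.80, SE 0.24, adjusted p = 3.59e-05). Fes1A, at 1.21 (SE 0.25), was not called without stigma 2. The call was lost with a pseudocount of 144.2 or within chip lot 1 for Fes1A.

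Few genes of the core secretory pathway were called. Of 27 tested genes for exocyst, SNARE and ESCRT proteins, which target and sort vesicles, 1 was called, VPS24.1, higher by 1.28 (SE 0.16, adjusted p = 2.59e-05) with 1222, 1019 and 1249 against 508, 383, 469.5 and 526. The list's median was 0.24, and 3 were called higher without stigma 3 or without seedling 4, and 2 without seedling 3. None of 5 V-ATPase subunit genes was called, with VHA-A2 furthest at 0.83 (SE 0.13). Nearby lists held members called in both directions. PRA1.B4, a membrane protein of vesicle traffic, had 3557, 3908 and 3291 against 418, 282, 309 and 203 (3.53, SE 0.22, adjusted p = 3.06e-08), the only gene called higher of 16 tested in its list against 4 lower, or 2 lower without stigma 1 or with the GAPDH ratio as a covariate. Of the lower ones ARLA1B was at −2.07 (SE 0.36). Of 8 tested tetraspanin genes 3 were higher and 2 lower, or 1 lower without stigma 1 or seedling 4. TET8, a tetraspanin of secreted vesicles, had 8359, 7422 and 6577 against 1388, 1673, 1933 and 3966 (1.84, SE 0.27, adjusted p = 8.53e-05), and TET9 was higher by 2.18 (SE 0.20). TET6 and TET5 were lower, at −2.19 (SE 0.27) and −1.04 (SE 0.24). Of 24 tested IQD and TRM genes, for microtubule-associated proteins, 3 were higher and 4 lower. IQD18 had 193, 332 and 202 against 8.9, 13.7, 6.2 and 5 (at least 3.31, SE 0.39, adjusted p = 1.05e-05), while iqd21, TRM24, IQD22 and IQD24 were lower, at −2.23 (SE 0.23), −1.58 or lower (SE 0.30), −1.37 (SE 0.22) and −1.30 (SE 0.17). Of 16 tested tubulin and microtubule genes 1 was higher and 3 lower. TUB6, a beta-tubulin, had 3530.3, 3500.4 and 3155 against 1256, 1138, 1451 and 1464 (1.35, SE 0.14, adjusted p = 2.57e-06), and SP1L2 and TUB1 were lower, at −2.35 (SE 0.29) and −1.74 (SE 0.21). Stigma arrays were above all seedlings for IQD18 and TUB6. SDH1-1, the flavoprotein of succinate dehydrogenase, was higher by 1.86 (SE 0.21). Of 25 tested genes of cell division and chromatin 1 was higher and 3 lower, among them TOPII, a topoisomerase, at −1.77 (SE 0.30). Beside the above, calls ended with the GAPDH covariate, within chip lot 2 or under another scaling, block or set of arrays for TET5; with a pseudocount of 144.2 for ARLA1B, TET6, TET5, TRM24, IQD22, IQD24 and TOPII; within chip lot 1 for TRM24.

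The differences largely held without seedling 4. Without it 1668 probe sets were called higher and 2424 lower, 26.4% of those tested. Of the 4053 calls 3757 (92.7%) were kept in the same direction, 296 were lost and 335 were new, and no called difference changed sign. Among the calls the median change of the log2 difference was 0.11 and the largest 1.14. Of the 284 called genes singled out by the naming rule 262 were kept and 22 lost. Among the lost are SBTI1.1, TBL37 and YUC6, described above, and 39 of the 69 lists kept both counts exactly.

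**Figure D3:**
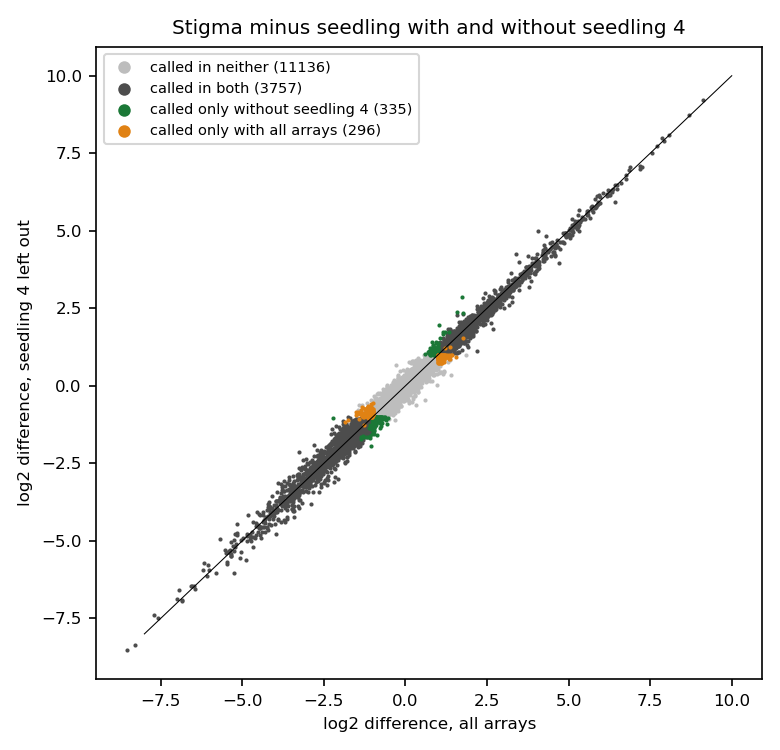
Each point is 1 tested probe set, with the log2 difference, stigma minus seedling, from all arrays on the horizontal axis and that without seedling 4 on the vertical axis; the line marks equality. Dark grey points (3757) were called both ways, orange (296) only with all arrays, green (335) only without seedling 4, and light grey in neither; orange and green points gather near the 2-fold limits.

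Among the seedling arrays, seedling 4 was most often the one apart. It lay at least 2-fold beyond the nearest other seedling for 753 tested probe sets (4.85%), above them for 349 and below for 404; for seedlings 1, 2 and 3 the totals were 19, 39 and 35. Among the stigma arrays, stigma 1 lay apart for 318, stigma 2 for 92 and stigma 3 for 154. AT2G05540 had 2629.9, 2596, 6236 and 9021 on seedlings 1 to 4, AT2G20670 had 905, 797, 3426 and 9902 and AT1G19530 had 287, 235, 1231 and 2751. In all 3, seedlings 3 and 4, which share a chip lot and a scanning period, were above seedlings 1 and 2, and stigma arrays were lower still.

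For MCCA, MCCB and IVD, genes for the breakdown of branched-chain amino acids, seedlings 3 and 4 were again above seedlings 1 and 2. MCCA and MCCB, the subunits of methylcrotonyl-CoA carboxylase, had 668, 620.0, 1103 and 5562 and 1498, 1159.8, 2973 and 8288 on the seedling arrays, beside 292, 316 and 284 and 1433, 976 and 799 on the stigma arrays. IVD, isovaleryl-CoA dehydrogenase, had 387, 470.4, 764 and 2711 beside 288, 285 and 236. All 3 were called lower in stigma, MCCB with overlapping arrays, at −2.03 (SE 0.55), −1.29 (SE 0.49) and −1.49 (SE 0.47). They were the only calls among 11 tested genes of branched-chain and lysine breakdown, whose median was −0.24. With the GAPDH ratio as a covariate there was none. Without seedling 4 the differences were −1.33, −0.73 and −0.91 and MCCA alone was called; the count was also 1 without stigma 3, and MCCB was lost without stigma 2 or seedling 3 as well. ATG8E, an autophagy gene, had 841, 748, 1817 and 4256 on the seedlings and differed by −1.96 (SE 0.47), or −1.46 without seedling 4. The other autophagy gene called, ATG8H at −1.01 (SE 0.19), was lost without stigma 1, stigma 2 or seedling 4. Under other settings the call ended with the GAPDH covariate or within chip lots 1 and 2 taken alone for MCCA, MCCB, IVD, ATG8E and ATG8H; with a pseudocount of 144.2 for ATG8H; under another scaling, block or set of arrays for MCCA, MCCB, IVD and ATG8H.

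**Figure D4:**
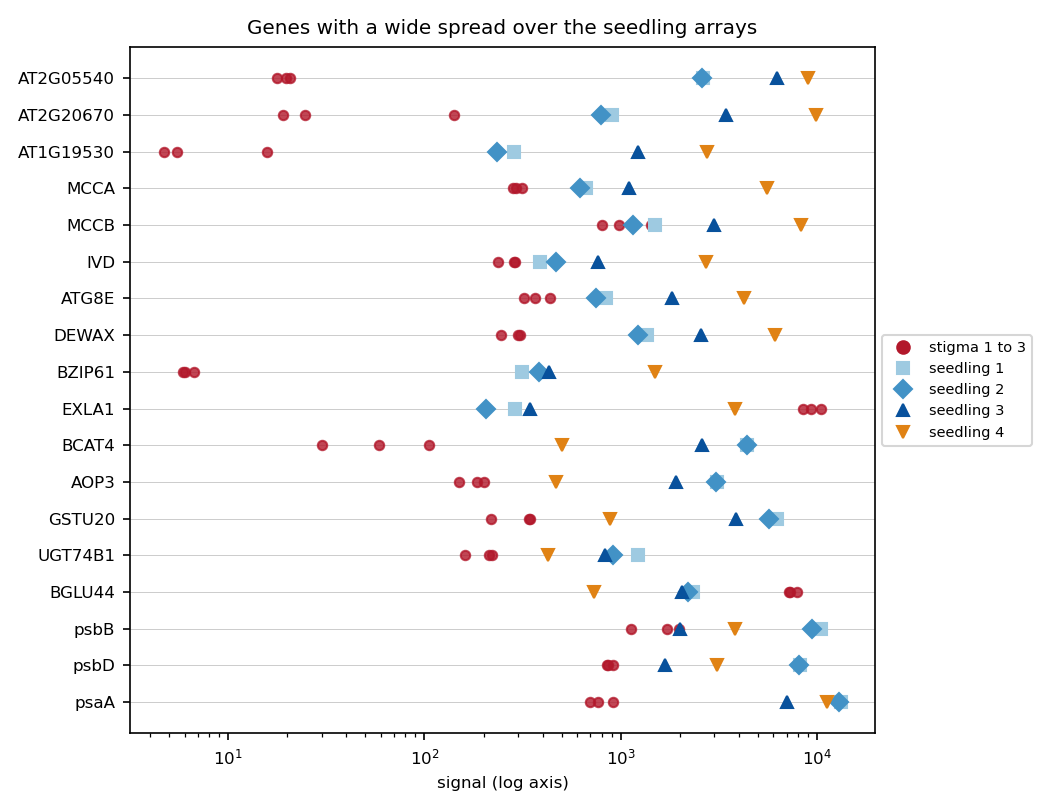
Signal (log axis) on the 3 stigma arrays (circles) and on each of the 4 seedling arrays (other symbols) for 18 genes chosen after their values were seen because the seedling arrays spread widely. From AT2G05540 to EXLA1 seedling 4 is the highest seedling, as for MCCA at 5562 against 620 to 1103, from BCAT4 to BGLU44 it is the lowest, as for BCAT4 at 503 against 2585 to 4392, and for the chloroplast genes psbB, psbD and psaA seedling 3 is the lowest.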

How the data were processed

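Each sample was 1 Affymetrix ATH1 array, read in 1 colour. The deposited table holds linear intensity values, 1 per probe set; the 2% trimmed mean was 500.03 to 500.04 on every array, so the authors had scaled the arrays, as read from the values. The software and genome build are not stated in the sources at hand. The deposited run information of each array is of another kind (other) and served only for chip lot and scanning period. Of 22810 probe sets 64 were controls; 13513 were paired with 1 gene, 503 with several and 8730 were not listed in the annotation supplied, and 13484 of those with 1 gene had a locus there or in the RefSeq gene table. Names are the shortest symbol of that table. No sequences or coordinates were used.

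A probe set was tested where at least 3 arrays had a signal over 144.2 (the 40th percentile): 15524 were kept and 7222 left out. Values were log2(signal + 17.2), with no further scaling. limma 3.58.1 in R 4.3.3 fitted 1 mean per tissue over all 11 arrays with a variance trend (8 residual and 5.19 prior degrees of freedom), and p-values were adjusted over all tested probe sets. The procedure was tested on simulated data. A gene with several probe sets was represented by the brightest one. The text names up to 25 leading genes per direction, up to 6 called genes per direction of each list, or the most different one where none was called, and the label-check genes; ANX1, MGH3, AT59, ACT12, ATA27, AMS, LHCB4.3, NGA2, NGA4, SPT and YUC2 were named after their values were seen, as were the genes plotted for seedling spread. Members and lists were chosen with earlier results of these data known. SE is the standard error of a log2 difference. It rests on the spread within the tissues over all 11 arrays, so ovary arrays that differ widely raise it, as for AT5G19880 and AT3G12000. The number of arrays limits the precision. Alternatives covered pseudocount, filter, scaling, arrays left out, blocks for replicate number, lot and scanning period, and RNA quality.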

Additional observations from a re-analysis of the deposited data

Results flagged for a closer look

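Within the 4 seedling arrays, the array furthest out was compared with the nearest other by Dixon's ratio on the log2 scale for each gene singled out by the naming rule. Chance flags about 1 in 20 such groups, and 23 of 290 genes were flagged. In 13 of the 23 the array apart was seedling 4. It was high for TRICHOME BIREFRINGENCE (1441 against 640.3 to 685.1 on the others), EXLA1 (3831 against 206 to 343.9), TET5 (401.8 against 242.9 to 252.7), SKU5 (6542 against 3333 to 3726), WRKY22 (702.3 against 174.3 to 212.4) and OCT4 (399.4 against 195.7 to 218.1). It was low for AGL79 (230.9 against 440.7 to 489.7), MSRB6 (467.9 against 948.4 to 1094), BGLU44 (729.8 against 2056 to 2324), OCT5 (209.9 against 762.1 to 798.1), CYP51G2 (74.8 against 120.4 to 131.1), RR16 (79 against 125.7 to 131.2) and PRX25 (89.3 against 145 to 157.6).

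Seedling 3 was apart for RALFL31 (120.2 against 226.6 to 256.6), PRX72 (134.1 against 186.4 to 191.5), AT1G56100 (29.7 against 6.7 to 7.8), BRL1 (92.0 against 72.6 to 74.4) and GH3.9 (131.9 against 98.6 to 99.3). Seedling 1 was apart for OCT1 (12 against 4.6 to 5.6), AT1G05450 (3.1 against 51.1 to 69.6) and SCPL43 (88.5 against 133.7 to 141.1). Seedling 2 was apart for bHLH104 (799.7 against 995.6 to 1012) and IQD24 (460.5 against 515 to 524.6).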

How the results depend on the processing

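The counts of 1707 higher and 2346 lower stayed within 1.5 times under every alternative that changed the processing or the arrays. They were 1143 and 1576 with a pseudocount of 144.2, 1996 and 2745 with no filter, 1408 and 1720 with a stricter one, 1820 and 2238 with equal medians, and 1718 and 2423 without seedlings 3 and 4 together, a setting chosen after seeing the data. Leaving out 1 array gave 1668 to 1759 higher and 2268 to 2424 lower. The fold limit moved them: with none 3897 were higher and 3747 lower, and at 4-fold 601 and 844. Same-numbered stigma and seedling arrays deviated together little (correlations 0.058, 0.015 and 0.046, beside −0.068 to 0.026 for arrays of unlike number). Such values cannot settle whether the numbers pair the samples. With the replicate block 1680 were higher and 2359 lower. Of the 284 called genes named, 237 stayed called whichever array was left out and 167 under every alternative; 81 were lost with the larger pseudocount and 59 with the RNA ratio as a covariate. Among the genes singled out by the naming rule, 3 that were not called changed sign: INO (−0.0026 with the RNA covariate), CYP51G2 (−0.13 with lot as a block, −0.62 within lot 1, −0.016 to 0.484 when 1 array was left out, −0.018 without seedlings 3 and 4) and MON1 (−0.080 to 0.032 when 1 array was left out, 0.015 with equal medians, 0.026 with lot as a block, 0.15 within lot 1, 0.015 without seedlings 3 and 4); the cause was not tested. Dim transcripts limit the folds: 70 probe sets called higher had a seedling mean and 111 called lower a stigma mean under 17.2.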

Other observations

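Of the genes singled out by the naming rule and called higher in stigma than in seedling, 23 had an ovary mean above the stigma mean. Stigma 1 was the highest stigma array for 15 of them, the lowest for 6 and between the others for 2. How often stigma 1 was the highest over all tested probe sets was not counted, so these counts have no base to be read against. Stigma 1 was also the stigma array most often apart, for 318 probe sets against 92 and 154, and had the highest GAPDH ratio, 2.27. THI2.1 had 9094, 2155 and 2020.0 on stigma arrays 1 to 3 and an ovary mean of 14565, DELTA-VPE had 722, 229 and 223 and 3371, scpl41 had 429, 94.5 and 56 and 796, and AT1G56100 had 116, 31.1 and 60.5 and 2205. SWEET10, PRX52 and DD46, with ovary means of 1535, 1046 and 241, had 912, 1037 and 1223, 379.8, 528 and 457 and 16.2, 64.7 and 77.1, with stigma 1 the lowest. JMT and JAL23, with ovary means of 2161 and 3428, had 559, 541 and 418 and 352, 169.9 and 248. UBC31, a ubiquitin-conjugating enzyme gene, had 104, 47.2 and 36.1 on stigma arrays and an ovary mean of 323. The share of ovary tissue in the cut stigmas was not tested.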
